A study of Rattus norvegicus with 21 samples.

Results

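Oligodendrocyte precursor and lineage genes were followed in the dentate gyrus of rats exposed to chronic stress and antidepressants. The set was defined by name and holds 10 genes: the precursor genes Pdgfra and Cspg4, the committed-stage genes Gpr17, Bcas1 and Enpp6, and the lineage transcription factors Olig1, Olig2, Sox10, Nkx2-2 and Myrf. Genes for myelin proteins were left out of it. In the array annotation used here 7 of the 10 had a probe set assigned to that gene alone, 1 probe set each, and all 7 lay above the low signal filter, among 10804 genes tested. The levels of Olig2, Nkx2-2 and Myrf were not analysed here.

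Oligodendrocyte precursors carry the PDGF receptor alpha and the proteoglycan NG2 (the products of Pdgfra and Cspg4), divide throughout adult life and give rise to myelinating cells. Gpr17, Bcas1 and Enpp6 are used as markers of cells that have committed to differentiation, while Olig1 and Sox10 are expressed from precursor to mature cell. In the hippocampus these cells lie among the granule neurons and fibre layers that make up the dentate gyrus.

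Total RNA of the dentate gyrus was measured on Affymetrix gene arrays in 18 wild type male Wistar rats aged 2 months, 3 in each of 6 groups. In 4 groups, 6 weeks of unpredictable chronic mild stress (uCMS) were combined with a daily intraperitoneal antidepressant over the last 2 weeks: agomelatine at 40 mg/kg in hydroxyethylcellulose, tianeptine at 10 mg/kg in saline, imipramine at 10 mg/kg in saline, or fluoxetine at 10 mg/kg in water. A further group had the stress alone, labelled as untreated, and the control group had neither stress nor drug. The labels do not say that stressed or control rats were injected with a vehicle, so drug, vehicle and injection cannot be told apart, and drugs were given at unequal doses. Each control animal was also run on a repeat array, and its 2 arrays were averaged.

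Array values are log2 intensities, on which a difference of 1 is a doubling, and array medians ranged from 7.99 to 8.10. A gene was called changed when its Benjamini-Hochberg adjusted p in limma, over all genes tested, was under 0.05. Among animals, agomelatine 1 and stress 1 stood apart in 4 choroid plexus genes, whose mean centred level was 3.46 in agomelatine 1 and 1.08 in stress 1, against -0.45 to -0.06 in the other 16 animals. The granule neuron genes Prox1 and C1ql2, markers of the labelled tissue, averaged 11.26 and 11.22 in agomelatine animals and 11.70 and 11.92 in control animals. The median gene had an SD of 0.114 among agomelatine animals and of 0.063 to 0.085 in the other groups. In bulk tissue, fewer cells of a type and less RNA per cell cannot be told apart.

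Promoters of a pair of committed-stage genes, Enpp6 and Gpr17, are shown because these genes lay on opposite sides of the stress level in agomelatine animals. The sequences are from RefSeq, build GRCr8, and run 5′ to 3′ on the minus strand from 250 bases before to 50 after the gene start, chr16:52026679-52026978 for Enpp6 and chr18:23857332-23857631 for Gpr17. Capitals mark matches, on either strand, to the E-box CANNTG, bound by basic helix-loop-helix factors such as Olig1, to its form CAGCTG, or to the SOX-type motifs ACAAAG and ACAATG.
Enpp6: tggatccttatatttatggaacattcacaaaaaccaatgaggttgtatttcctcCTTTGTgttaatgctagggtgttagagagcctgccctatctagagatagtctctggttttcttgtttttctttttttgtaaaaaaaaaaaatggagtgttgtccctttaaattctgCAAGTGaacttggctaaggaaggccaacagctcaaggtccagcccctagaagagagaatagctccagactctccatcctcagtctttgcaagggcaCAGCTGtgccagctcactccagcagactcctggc
Gpr17: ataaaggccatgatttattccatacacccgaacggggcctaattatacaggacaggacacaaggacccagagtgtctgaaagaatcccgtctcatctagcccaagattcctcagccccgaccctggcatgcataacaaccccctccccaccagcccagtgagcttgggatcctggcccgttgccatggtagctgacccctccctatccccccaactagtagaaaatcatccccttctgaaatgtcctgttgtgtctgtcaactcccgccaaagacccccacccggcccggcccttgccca
The Enpp6 window held CANNTG at positions 171 and 267, the match at 267 being CAGCTG, and ACAAAG at position 55 on the opposite strand. None of the 4 motifs was found in the Gpr17 window. The same held for the windows of Cspg4, Olig2 and Nkx2-2, which are not shown, while that of Pdgfra held 1 CANNTG. Of 33469 rat promoters of this length, 72.1% held CANNTG, 15.06% CAGCTG, 18.78% ACAAAG and 13.22% ACAATG, so such matches are common.

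Across the 6 groups, Bcas1 and Olig1 differed in the moderated F test, 2 of 7 genes where 6.76% of all genes tested did so (adjusted p = 0.00801 for Bcas1 and 0.0455 for Olig1, limma). Enpp6 (adjusted p = 0.0895), Gpr17 (0.0945), Sox10 (0.143), Pdgfra (0.280) and Cspg4 (0.372) did not pass in the same limma test. Leaving out 1 animal in turn, the F test called Bcas1 in 17 of 18 fits, all but that without agomelatine 1, and Olig1 in 5 of 18. With agomelatine 1 and stress 1 left out together it called neither gene.

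**Figure D1:**
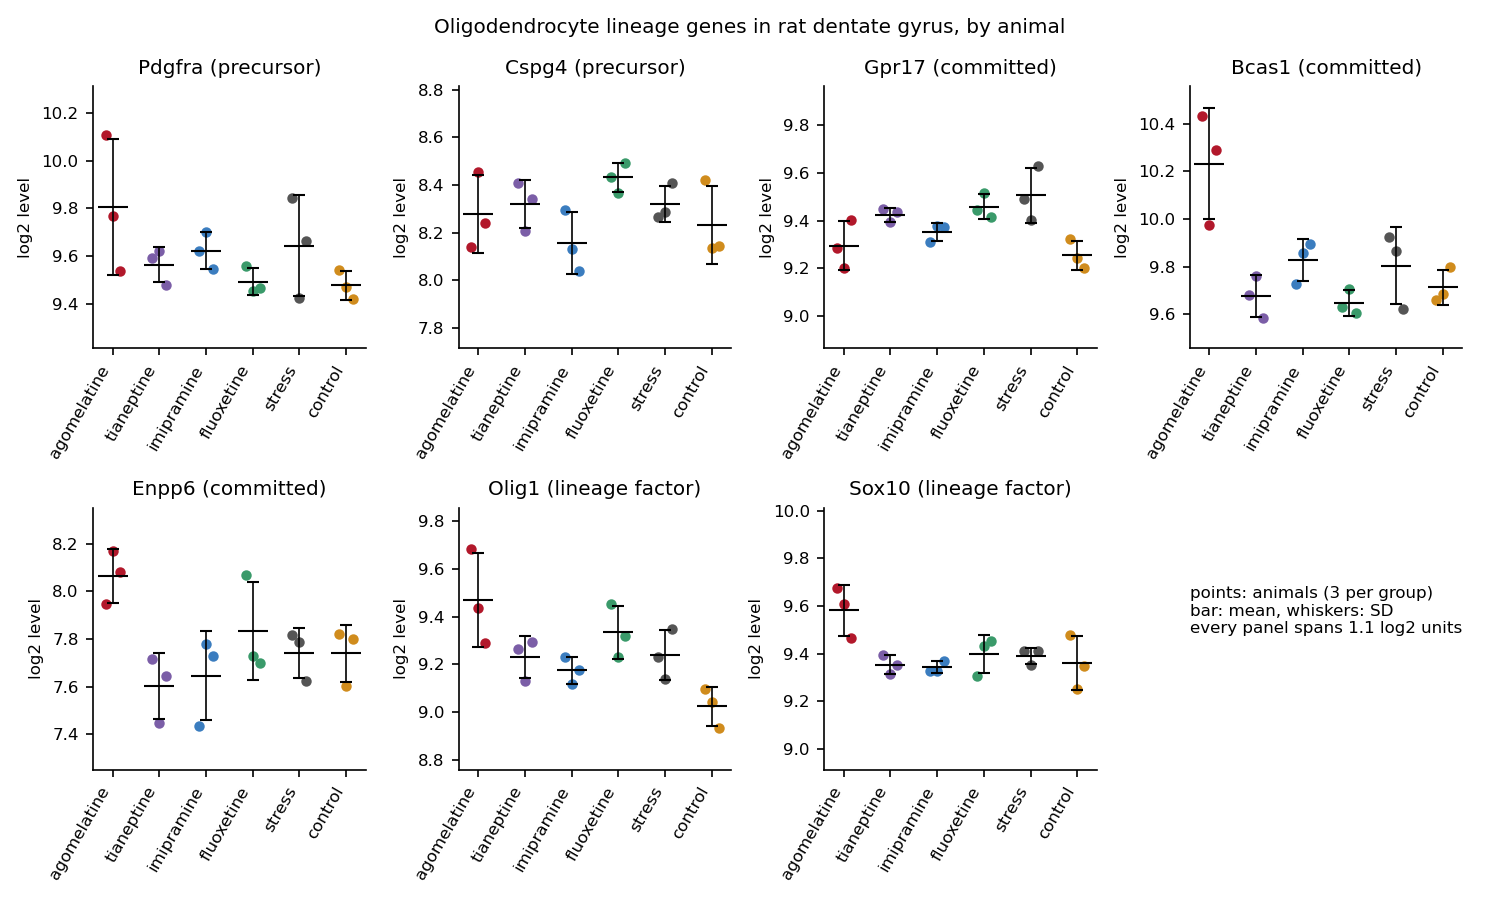
Log2 level of the 7 genes in each animal (points, 3 per group), with the mean (bar) and SD (whiskers), for agomelatine, tianeptine, imipramine, fluoxetine, stress and control. Bcas1 lies at 9.97 to 10.43 in agomelatine animals, above the other 15 animals.

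The comparison of agomelatine with stress asks whether the drug moved these genes in stressed rats. Bcas1, listed here as a committed-stage gene, rose, and it was the 1 gene of 7 that passed, against 10.8% of all genes tested (4.18% higher, 6.58% lower). Enpp6, Sox10, Olig1 and Pdgfra had positive differences and Gpr17 and Cspg4 negative ones, none of them called. The median of the 7 was 0.19, against -0.03 over all genes. Groups did not overlap in 3 of 7 genes, where 25.2% of all genes did not.

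Bcas1 measured 10.43, 9.97 and 10.29 in agomelatine animals, against 9.93, 9.87 and 9.62 in stressed animals. All 3 agomelatine animals were above all 3 stressed animals, with agomelatine 2 and stress 1 the closest. The difference was 0.43 ± 0.10 (SE), a 1.34-fold level, with an adjusted p of 0.0105 in limma. It was 0.34 with an adjusted p of 0.0567 in limma without stress 3, and its adjusted p was 0.0983 in limma with these 2 groups alone.

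Enpp6, a choline phosphodiesterase of newly formed oligodendrocytes, measured 7.95, 8.17 and 8.08 in agomelatine animals and 7.82, 7.79 and 7.62 in stressed animals. Agomelatine values again lay above all stress values, with a difference of 0.32 ± 0.11 (SE) that was not called (adjusted p = 0.0709, limma). Gpr17, a receptor of committed precursors, was at 9.29, 9.20 and 9.40 in agomelatine animals and at 9.49, 9.40 and 9.63 in stressed animals. The groups met at 9.40, and the difference of -0.21 ± 0.07 (SE) did not pass (adjusted p = 0.0523, limma). The Gpr17 difference passed in 3 of 18 fits that left out 1 animal, among them without stress 2 (0.0439) and without agomelatine 3 (0.0257). In those 18 fits its adjusted p ran up to 0.217 (limma), and it passed in 1 of 13 other alternatives.

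Bcas1 and Gpr17 thus had differences of opposite sign, a pair chosen after their values were seen. The level of Bcas1 minus that of Gpr17 spanned 0.775 to 1.15 in agomelatine animals and -0.008 to 0.466 in stressed animals, without overlap. The difference of differences was 0.64, with an exact permutation p of 0.1 (two-sided), the smallest that 3 against 3 animals can give.

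Among lineage factors, Sox10, which directs terminal differentiation, was at 9.67, 9.61 and 9.46 in agomelatine animals, against 9.41, 9.35 and 9.41 in stressed animals. These groups did not overlap, and the difference was 0.19 ± 0.07 (SE, adjusted p = 0.0783, limma). Olig1, a helix-loop-helix factor of the lineage, was at 9.68, 9.44 and 9.29 in agomelatine animals and 9.23, 9.14 and 9.35 in stressed animals. The lowest agomelatine animal fell below the highest stressed one, for a difference of 0.23 ± 0.09 (SE, adjusted p = 0.105, limma). With arrays set to equal medians, Olig1 and Sox10 were both called (adjusted p = 0.0237 and 0.0302, limma). That scaling also moved the balance of all calls, from 38.9% higher as deposited to 65.7% higher, and repeated quantile normalisation gave 49.8% higher.

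Neither precursor gene was called. Pdgfra measured 10.11, 9.77 and 9.54 in agomelatine animals and 9.84, 9.42 and 9.66 in stressed animals, overlapping ranges with a difference of 0.16 ± 0.11 (SE, adjusted p = 0.382, limma). Cspg4 was at 8.14, 8.46 and 8.24 in agomelatine animals and 8.27, 8.29 and 8.41 in stressed animals, a difference of -0.04 (95% interval -0.25 to 0.16).

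**Figure D2:**
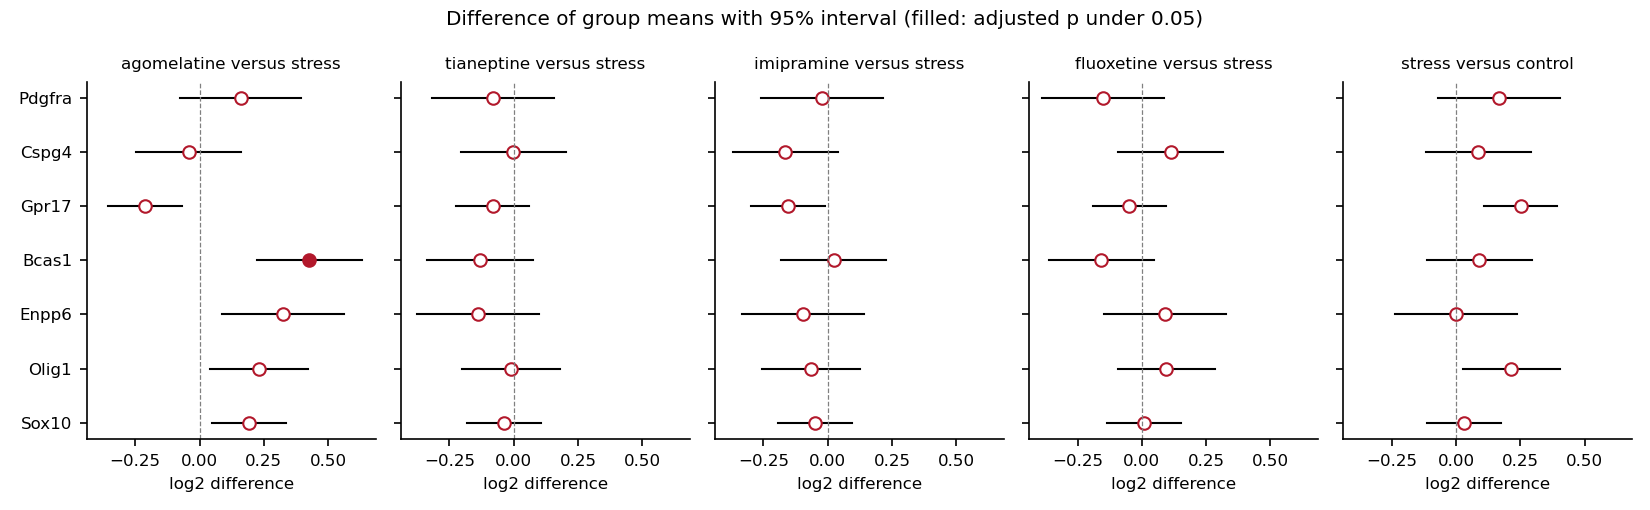
Log2 difference of group means (points) with 95% intervals (lines) for the 7 genes in 5 comparisons. Filled points have an adjusted p under 0.05, which holds for Bcas1 in agomelatine versus stress.

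Against unstressed control animals, agomelatine animals showed higher Bcas1, Olig1 and Sox10, 3 of 7 genes, where 9.59% of all genes tested were called (5.28% higher). Bcas1 was at 9.66, 9.68 and 9.80 in control animals, all below the agomelatine animals, and the difference was 0.52 ± 0.10 (SE, adjusted p = 0.00359, limma). Olig1 was at 9.10, 9.04 and 8.93 in control animals, again below all agomelatine animals, and differed by 0.45 ± 0.09 (SE, adjusted p = 0.00549, limma). Sox10, at 9.48, 9.25 and 9.35 in control animals, overlapped the agomelatine group and differed by 0.22 ± 0.07 (SE, adjusted p = 0.0474, limma). The Sox10 call held in 4 of 18 fits that left out 1 animal, with differences of 0.17 to 0.28. It also depended on the control array: Sox10 differed by 0.26 from the first arrays (adjusted p = 0.0134, limma) and by 0.18 from the repeat arrays (0.185). Olig1 differed by 0.33 from the first arrays (0.0224) and 0.57 from the repeat arrays (0.00132). Bcas1 differed by 0.60 (0.00113) and 0.44 (0.0114), so both stayed called. Enpp6 was called on the first arrays only (0.0368). Pdgfra was 0.33 ± 0.11 (SE) higher without a call (adjusted p = 0.0735, limma), and without agomelatine 1 its difference was 0.18 (0.335).

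Agomelatine animals were also compared with the other drugs. Bcas1 was higher than in fluoxetine animals by 0.58 ± 0.10 (SE, adjusted p = 0.00136, limma), the 1 gene of 7 called where 11.8% of all genes were (5.07% higher). Against imipramine, 4 of 7 genes were called (9.39% of all genes, 5.04% higher): Bcas1 by 0.41, Enpp6 by 0.42, Olig1 by 0.30 and Sox10 by 0.24. Against tianeptine, 3 of 7 were called (13.5% of all genes, 6.51% higher): Bcas1 by 0.56, Enpp6 by 0.46 and Sox10 by 0.23. These comparisons share the agomelatine animals and are not independent of one another. Bcas1 was at 9.68, 9.76 and 9.59 in tianeptine animals, at 9.73, 9.86 and 9.90 in imipramine animals and at 9.63, 9.71 and 9.60 in fluoxetine animals. Enpp6 was at 7.72, 7.45 and 7.64 in tianeptine animals, at 7.44, 7.78 and 7.73 in imipramine animals and at 8.07, 7.73 and 7.70 in fluoxetine animals, so fluoxetine 1 alone reached the agomelatine range.

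Tianeptine, imipramine and fluoxetine each gave 0 calls among the 7 genes against stress, where limma called 0% of all genes. At an unadjusted p under 0.05 the 7 genes gave 0, 1 and 0 calls, beside 5.06%, 10% and 5.01% of all genes. The imipramine gene was Gpr17, at 9.31, 9.38 and 9.37 in imipramine animals, below all stressed animals, with a difference of -0.15 ± 0.07 (SE, adjusted p = 0.473, limma). Groups did not overlap for 1 of 7 genes with imipramine, and for 19.7% of all genes. For Bcas1 the 95% intervals of the difference from stress were -0.34 to 0.08 with tianeptine, -0.18 to 0.23 with imipramine and -0.36 to 0.05 with fluoxetine, and for Pdgfra they were -0.32 to 0.16, -0.26 to 0.21 and -0.39 to 0.08 for the same 3 drugs.

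Stress against control addresses the effect of uCMS itself. Limma called 0 of the 7 genes and 0% of all genes, and at an unadjusted p under 0.05 it named 2 of 7 genes and 5.4% of all genes. All 7 genes had differences above 0, as did 60.4% of all genes, and the medians were 0.09 and 0.02. Enpp6 stood at 0.00 and was below 0 in 6 alternative settings, and Sox10, at 0.03, in 4. Gpr17 was 0.25 ± 0.07 (SE) higher, at 9.49, 9.40 and 9.63 in stressed animals and 9.32, 9.24 and 9.20 in control animals, without overlap (adjusted p = 0.828, limma). Olig1 was 0.22 ± 0.09 (SE) higher, also without overlap (adjusted p = 0.828, limma), where 13.1% of all genes did not overlap.

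The other drugs against control also gave 0 calls among the 7 genes, where limma called 0% of all genes with tianeptine, 0.0185% with imipramine and 0% with fluoxetine. Olig1 was 0.31 ± 0.09 (SE) higher in fluoxetine than in control animals (adjusted p = 0.757, limma), at 9.45, 9.23 and 9.32 in fluoxetine animals. Gpr17 was 0.20 ± 0.07 (SE) higher in fluoxetine animals (adjusted p = 0.834, limma), at 9.44, 9.52 and 9.41. Both differences moved with the control array: Gpr17 was 0.02 higher than on the first arrays and 0.39 higher than on the repeat arrays (adjusted p = 0.0140, limma), and Olig1 0.19 and 0.43 higher (0.0350 on the repeat arrays). The share of all genes called for fluoxetine against the repeat arrays is not given. With both arrays averaged, neither gene's fluoxetine values overlapped those of control animals, which held for 11.5% of all genes. In the comparisons among tianeptine, imipramine and fluoxetine, 0 of the 7 genes and 0% of all genes were called.

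The Gpr17 and Olig1 differences between stress and control varied with the control array used. Gpr17 was lower on the repeat than on the first array in all 3 control animals, by 0.40, 0.29 and 0.44, and Olig1 by 0.32, 0.21 and 0.19. Over all genes, 45% had all 3 animals on one side, and 3 of the 7 genes did, the other being Bcas1 with repeat arrays 0.15 higher. The mean shift of Gpr17, -0.37, was larger in size than that of 99.2% of all genes. Stress minus first arrays was 0.06 for Gpr17 and 0.10 for Olig1, whereas stress minus repeat arrays was 0.44 (adjusted p = 0.00764, limma) and 0.33 (0.0684). With repeat arrays alone, limma called 1.17% of all genes in stress versus control.

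The repeat and first arrays were also compared by limma with the animal as a block on 6 arrays, in 4 settings added after the data were seen. With a variance trend, Gpr17 (adjusted p = 0.00071) and Olig1 (0.0279) were called along with 11.9% of all genes. Without the trend, neither was called (0.0583 and 0.0887) and 0.333% of genes were. When genes under the 50th percentile of signal were left out, both genes were called with the trend (0.000506 and 0.0197, 19.7% of genes) and without it (0.00513 and 0.0194, 13.4% of genes). The number of called genes thus ran from 36 to 1402 with the variance model and filter, and Gpr17 and Olig1 were called in 3 of 4 settings.

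**Figure D3:**
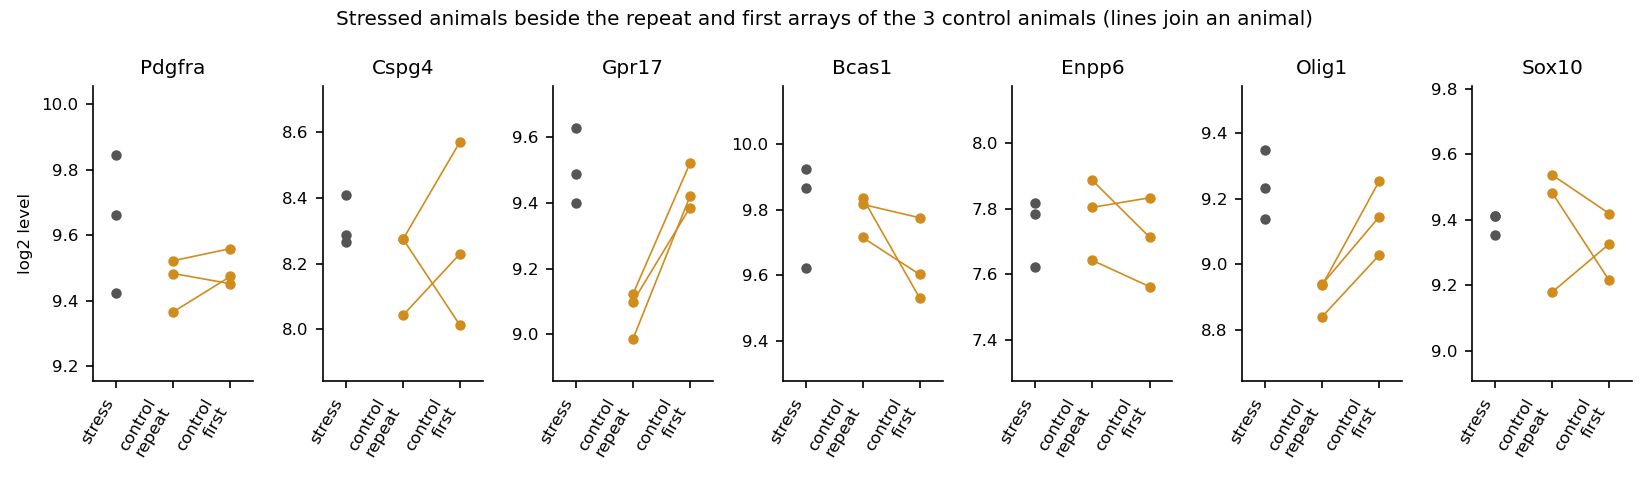
Log2 level of the 7 genes in 3 stressed animals (grey) and on the repeat and first arrays of 3 control animals (orange, lines join 1 animal). Gpr17 and Olig1 are lower on the repeat array in all 3 control animals.

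The order of the 6 group means differed from gene to gene. Pdgfra averaged 9.80 ± 0.29 in agomelatine, 9.56 ± 0.07 in tianeptine, 9.62 ± 0.08 in imipramine, 9.49 ± 0.06 in fluoxetine, 9.64 ± 0.21 in stress and 9.48 ± 0.06 in control animals (SD, n = 3 each, as for the genes that follow). Cspg4 averaged 8.28 ± 0.16 in agomelatine, 8.32 ± 0.10 in tianeptine, 8.16 ± 0.13 in imipramine, 8.43 ± 0.06 in fluoxetine, 8.32 ± 0.08 in stress and 8.23 ± 0.16 in control animals. Thus agomelatine had the highest mean of Pdgfra and fluoxetine that of Cspg4, and no pair of groups differed in either gene after adjustment. The widest Cspg4 gap, fluoxetine over imipramine, was 0.28 ± 0.10 (SE, adjusted p = 0.347, limma), with 8.44, 8.37 and 8.49 in fluoxetine animals and 8.30, 8.13 and 8.04 in imipramine animals.

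With control arrays averaged, Gpr17 had its highest mean in stress and its lowest in control. It averaged 9.29 ± 0.10 in agomelatine, 9.42 ± 0.03 in tianeptine, 9.35 ± 0.04 in imipramine, 9.46 ± 0.05 in fluoxetine, 9.51 ± 0.12 in stress and 9.25 ± 0.06 in control animals, and 0 of its 15 pairwise differences were called. Olig1 averaged 9.47 ± 0.20 in agomelatine, 9.23 ± 0.09 in tianeptine, 9.17 ± 0.06 in imipramine, 9.33 ± 0.11 in fluoxetine, 9.24 ± 0.11 in stress and 9.02 ± 0.08 in control animals. The place of control in the Gpr17 order depended on the array: the first arrays averaged 9.44, above the agomelatine, imipramine and tianeptine means. Olig1 averaged 9.14 on the first arrays, still the lowest group mean. Sox10 averaged 9.58 ± 0.11 in agomelatine animals and between 9.34 ± 0.03 (imipramine) and 9.40 ± 0.08 (fluoxetine) in the other 5 groups, none of which differed from each other after adjustment. Bcas1 and Enpp6 were likewise highest in agomelatine animals, at 10.23 ± 0.23 and 8.07 ± 0.11, and the other groups at 9.65 ± 0.05 (fluoxetine) to 9.83 ± 0.09 (imipramine) and 7.60 ± 0.14 (tianeptine) to 7.83 ± 0.21 (fluoxetine).

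Genes of related stages were read from lists chosen with earlier results of these data known. In agomelatine versus stress, 19 of 24 myelin and mature oligodendrocyte genes rose and none fell, with a median of 0.46, including Mbp (0.48 ± 0.08 SE), a major myelin protein, Mog (0.65 ± 0.08 SE), a surface protein of myelin, and Opalin (1.18 ± 0.11 SE), a late myelin protein. Among 14 other precursor markers, Sox5 rose (0.30 ± 0.08 SE) and Gpr37l1, a receptor that astrocytes also express, fell (-0.30 ± 0.08 SE), with a list median of 0.07. Of 12 newly formed oligodendrocyte genes, Arhgef28 rose (0.35 ± 0.08 SE) and the median was 0.03. In 27 signalling genes, 3 rose: Lpar1, a lysophosphatidic acid receptor (0.58 ± 0.12 SE), Gpr37 (0.46 ± 0.10 SE), which the myelin list also holds, and the FGF receptor gene Fgfr2 (0.30 ± 0.09 SE). Against these lists, 10.8% of all genes were called. The same 4 lists had 0 calls in stress versus control and in tianeptine, imipramine or fluoxetine versus stress. Limma called 0% of all genes in each of those comparisons, so no list could have held a call there.

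**Figure D4:**
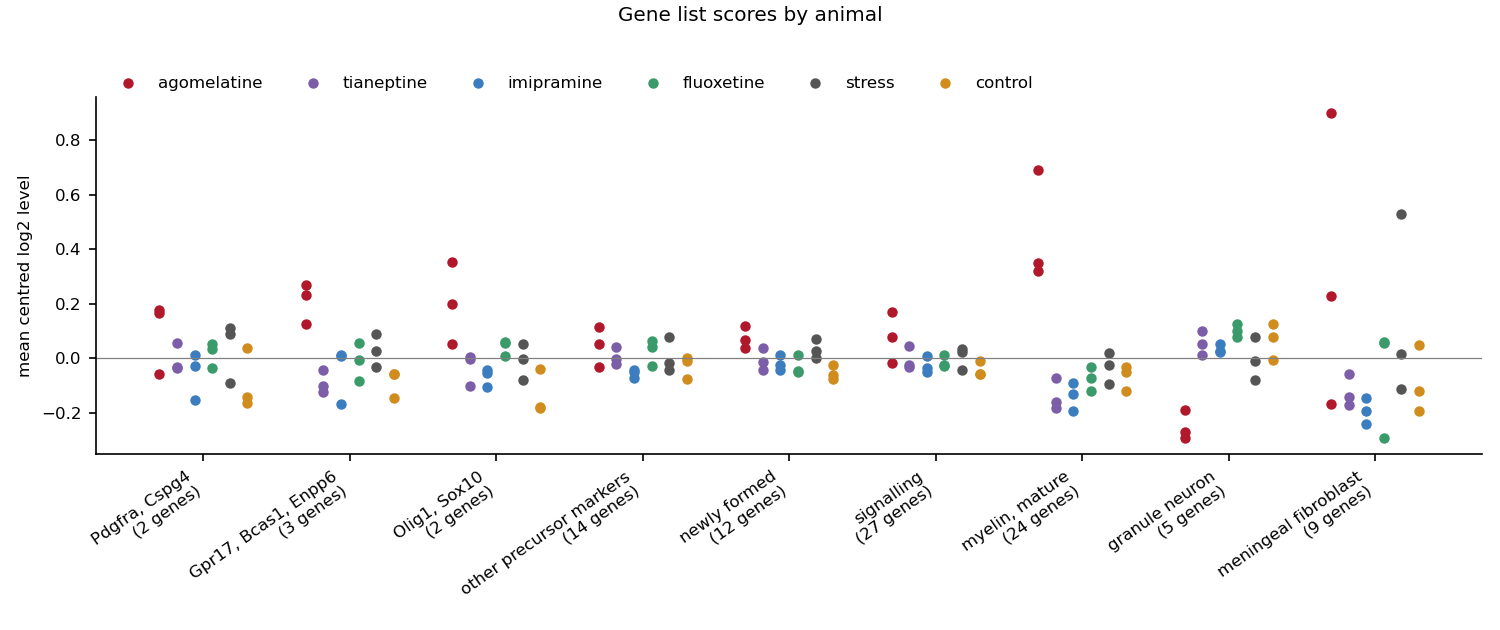
Mean centred log2 level of each gene list in each animal, coloured by group. Myelin scores are 0.32 to 0.69 in agomelatine animals and at most 0.02 elsewhere, and granule neuron scores are -0.29 to -0.19 in agomelatine animals and -0.08 to 0.13 elsewhere.

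Markers of other cells moved in the same animals. The granule neuron score over 5 genes was -0.29 to -0.19 in agomelatine animals and -0.08 to 0.13 in the other groups, with C1ql2 lower than in stress by 0.55 ± 0.07 on the log2 scale (SE, adjusted p = 0.000254, limma). The CA pyramidal score over 9 genes was 0.41, 0.37 and -0.03 in agomelatine 1, 2 and 3, while the other groups spanned -0.14 to 0.25, and Wfs1 and Cpne4 were called higher. Meningeal scores over 9 genes were 0.90, 0.23 and -0.17 in agomelatine 1, 2 and 3 and 0.53 in stress 1, against -0.29 to 0.06 in the other animals. Col1a1, the fixed marker in that list, differed by -0.03 ± 0.10 (SE) in agomelatine versus stress. All 11 astrocyte genes had differences below 0 in agomelatine versus stress, where 43.4% of all genes were above 0. Their median was -0.18, and Aldh1l1 was called lower (-0.24 ± 0.06 SE). The astrocyte score was -0.003, 0.006 and -0.23 in agomelatine 1, 2 and 3 and -0.10 to 0.12 in the other groups. It was 0.03 to 0.12 in stressed and -0.10 to 0.0006 in control animals, so agomelatine 1 and 2 lay near control. Of 10 endothelial genes, Cldn5 (-0.36 ± 0.08 SE) and Slc2a1 (-0.30 ± 0.07 SE) were called lower, with a list median of 0.03. Of 6 pericyte genes, Abcc9 was called higher (0.27 ± 0.09 SE), while Pdgfrb averaged 9.31 in both agomelatine and stressed animals. The pericyte score was -0.09, 0.24 and -0.08 in agomelatine 1, 2 and 3 and -0.16 to 0.17 in the other groups. None of 11 microglial genes was called. Pdgfra is also a fibroblast gene. Their part in the differences above was not tested. With agomelatine 1 and stress 1 left out together, a choice made after the data were seen, Bcas1 differed between agomelatine and stress by 0.39 (adjusted p = 0.0358, limma). That fit kept agomelatine 2 and 3, with granule neuron scores of -0.29 and -0.19, and so does not test the part of other cells.

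Over the 18 animals Pdgfra followed the meningeal score with r = 0.78 (permutation p = 0.00131, adjusted over 7 genes 0.00917) and rho = 0.21 (permutation p = 0.397, adjusted 0.506), and r was 0.15 without agomelatine 1 and stress 1. That relation rested on those 2 animals. Sox10 had r = 0.75 (permutation p = 0.00268, adjusted 0.00938), rho = 0.69 (permutation p = 0.00204, adjusted 0.0143) and r = 0.72 without them. Bcas1 had r = 0.59 with the score (permutation p = 0.0164, adjusted 0.0383), rho = 0.31 (permutation p = 0.215, adjusted 0.501) and r = 0.05 without them. These were permutation tests with 100000 resamples that shuffled all 18 animals regardless of group. Differences between groups and variation within groups thus both enter these p-values, which do not tell them apart.

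**Figure D5:**
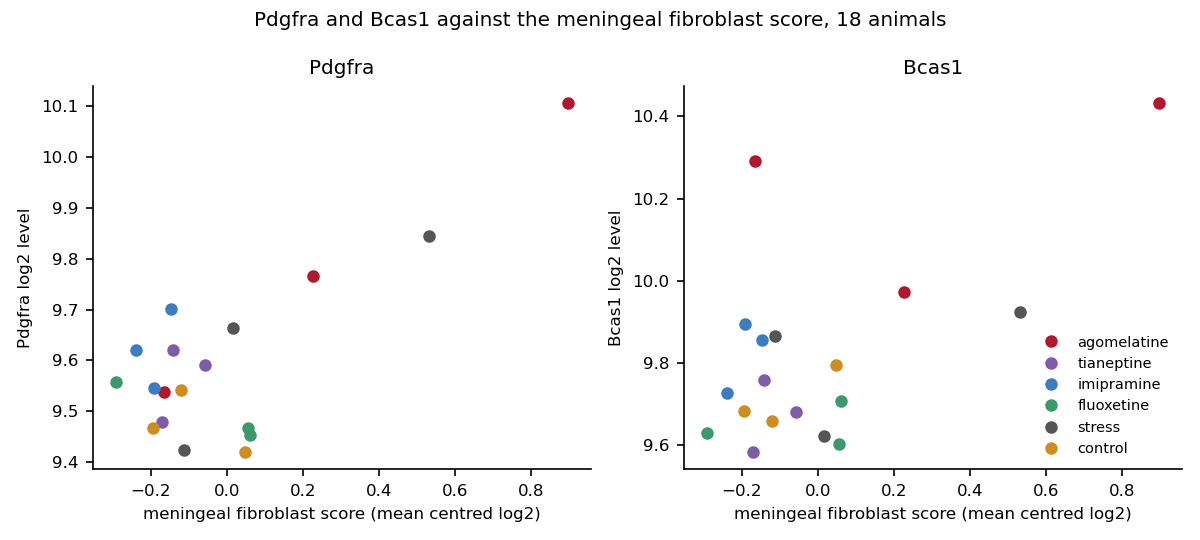
Log2 level of Pdgfra (left) and Bcas1 (right) against the meningeal fibroblast score in 18 animals, coloured by group. Pdgfra is highest in agomelatine 1 (10.11) and stress 1 (9.84), the 2 animals with the highest scores.

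The 7 genes did not vary as 1 unit. Within groups, over 18 animals, the deviations of Cspg4 and Bcas1 had r = -0.80, those of Pdgfra and Olig1 r = 0.66, and those of Bcas1 and Gpr17 r = -0.01. These are descriptions from 21 pairs, and the points share arrays and normalisation. With the myelin score, Bcas1 had r = 0.87 over 18 animals, where the agomelatine animals stood apart on both measures, r = 0.61 within groups, and r = 0.20 over the 15 animals of the other groups. This was not particular to Bcas1: over 18 animals r was 0.80 for Sox10, 0.66 for Olig1, 0.66 for Enpp6 and 0.64 for Pdgfra. It was -0.14 for Cspg4 and -0.33 for Gpr17. Over the 15 animals, Enpp6 had r = 0.52, the highest of the 7. The genes most like the mean profile of the 7, by Pearson r over 18 animals, were Elmo1 (0.92), Klhl13 (0.90), Cpne8 (0.90), Magi3 (0.89), Cnr1 (0.89), Tbl1x (0.88), Tekt5 (0.88) and Dmd (0.88), and the least like were Olfm1 (-0.84), Kctd4 (-0.84), Hps1 (-0.84) and Nhlh1 (-0.84). The former all had their highest mean in agomelatine animals. Within groups, r ran from 0.30 (Magi3) to 0.79 (Cpne8) for the former and from -0.34 (Hps1) to -0.55 (Nhlh1) for the latter. Gpr17 and Cspg4 had r of only -0.09 and 0.03 with the mean of the other members.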

How the data were processed

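Dentate gyrus RNA was hybridised to 21 arrays of 18 rats. The log2 values came from RMA (Affymetrix Expression Console 1.2 is the software named in the submitters' processing notes) and were used as deposited by the authors. RMA normalises arrays to a common distribution, so differences are relative to all probe sets. Of 29214 probe sets, 15310 had 1 gene symbol, 323 had several and 13581 were unnamed here. Symbols were updated through RefSeq (GRCr8, 15279 matched). Each gene was read from its brightest probe set by mean, and genes under the 25th percentile (log2 7.165) were left out. Control arrays were averaged per animal. A limma 3.58.1 fit in R 4.3.3 with 1 mean per group and a variance trend (12 residual degrees of freedom) gave 15 pairwise tests and an F test, Benjamini-Hochberg adjusted over 10804 genes. On simulated data, 35.5% of genes changed by 0.3, 88% by 0.5 and 99.5% by 1 were recovered in agomelatine versus stress. There 200 genes were changed and every group had the same spread, whereas agomelatine animals varied more in the data. The members and lists were chosen with earlier results of these data known. Genes named beside the members were up to 5 called genes per list and comparison by size plus fixed markers, and the 8 most and 4 least like the members. The labels do not say whether replicate numbers pair animals, and no pairing was used. Same-numbered deviations had mean r of 0.01, -0.01 and -0.02, with single pairs from -0.30 to 0.29, which does not settle it. Labels do not say how dissections were batched. The repeat against first array fits and the exclusion of agomelatine 1 with stress 1 were chosen after seeing the data. The count from the repeat array fit moves with its setting, so all 4 are given. The number of arrays limits precision.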

Additional observations from a re-analysis of the deposited data

Results flagged for a closer look

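Differences between drugs given under the same stress were called for 8 gene and drug pairs, each with limma. Relative to fluoxetine animals, agomelatine animals had Bcas1 higher by 0.58 (adjusted p = 0.00136, limma). Relative to imipramine animals, they had Bcas1 higher by 0.41 (adjusted p = 0.0147, limma), Enpp6 by 0.42 (0.0269), Olig1 by 0.30 (0.0469) and Sox10 by 0.24 (0.0346). Relative to tianeptine animals, they had Bcas1 higher by 0.56 (adjusted p = 0.00187, limma), Enpp6 by 0.46 (0.0123) and Sox10 by 0.23 (0.0347). Doses and vehicles differed between these drugs. When 1 animal was left out in turn, Bcas1 stayed called in 18 of 18 fits against fluoxetine, 18 of 18 against tianeptine and 16 of 18 against imipramine. Enpp6 stayed called in 16 of 18 against imipramine and 17 of 18 against tianeptine, Sox10 in 13 of 18 against each, and Olig1 in 7 of 18 against imipramine. Over the other alternatives, Sox10 was called in 8 of 13 against each of these drugs.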

How the results depend on the processing

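Over 32 settings, 3545 member values were recomputed: 3413 kept their side of the threshold, 92 lost a call, 40 gained one and 0 called values turned round. The 3413 include 75 uncalled values that changed sign. Of the F test's 2 called members, 1 was left with first control arrays only, with all 21 arrays and the animal as a random block, with no low signal filter and without the variance trend, 4 at an adjusted p under 0.1, and 0 without agomelatine 1 and stress 1. In agomelatine versus stress, 1 call became 2 with the filter at the 50th percentile (5 members tested), 3 with equal array medians, 3 with repeated quantile normalisation, 0 with the 2 groups alone and 4 at 0.1. Over all genes, 1163 calls became 1234 with equal medians and 1280 with repeated quantile normalisation. Against control, agomelatine's 3 calls became 5 with 21 arrays, 1 with 2 groups and 5 at 0.1. Against fluoxetine its 1 call became 2 with equal medians (1273 and 1282 over all genes) and 3 at 0.1. Against imipramine its 4 became 2 with 21 arrays, 1 with array weights, 0 with 2 groups and 1 without agomelatine 1 and stress 1. Against tianeptine its 3 became 1 with array weights. Similar counts could hide other genes: against tianeptine, Sox10 was called in 8 of 13 alternatives other than leaving out 1 animal, Enpp6 in 11 of 12 and Bcas1 in 13 of 13, and Olig1, not called as reported, in 2 of 13. With repeat control arrays only, 0 calls became 1 for stress, 2 for fluoxetine, 1 for imipramine and 1 for tianeptine, each against control. In that setting 1.17% of all genes were called for stress. The share for the 3 drugs is not given, so their member counts cannot be judged against it. Array weights gave 1 call in fluoxetine versus imipramine. The causes were not tested. Leaving out 1 animal gave 0 to 2 calls in the F test, 0 to 4 in agomelatine versus stress, 2 to 4 versus control, 1 to 3 versus fluoxetine, 0 to 4 versus imipramine and 1 to 5 versus tianeptine, and 0 to 0 in the other 10 comparisons. Calls among all genes moved too, from 251 to 1036 in the F test and 573 to 1498 in agomelatine versus stress. They were 278 to 1282 versus control, 826 to 1416 versus fluoxetine, 453 to 1300 versus imipramine and 736 to 1700 versus tianeptine. In the other 10 comparisons they reached at most 4 (imipramine versus control). For most other settings the calls among all genes are not given, so those member counts cannot be set beside a share.

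With the replicate number as a replicate block, a pairing that the labels do not state, the F test called 2 members, agomelatine versus stress 1, versus control 3, versus fluoxetine 1, versus imipramine 4 and versus tianeptine 3, the counts without it. Versus control, Pdgfra replaced Sox10 among the 3. A log2 difference of 0.3 was mostly missed in the simulation of agomelatine versus stress (35.5% recovered). That simulation gave every group the same spread and changed 200 genes, and recovery in other comparisons is not given. The figure is thus not the power of the tests on these data. With 3 animals a group, absent calls of that size carry little weight.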
